A study of Mus musculus with 12 samples.

Results

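The 9 amino acid transporter genes described here are Slc7a1, Slc7a3, Slc7a5, Slc7a11, Slc3a2, Slc38a1, Slc38a2, Slc1a4 and Slc1a5, chosen by symbol from the 24421 gene rows of a table of raw counts. All 9 were found, and all 9 passed the filter on low counts that left 15281 genes for testing. The counts come from polyadenylated RNA of E14 mouse embryonic stem cells, 12 samples in 4 groups of 3. WT FBS and KO FBS cells were wild type or Mettl3 knockout cells grown on gelatin in serum (FBS) with LIF, a cytokine that keeps stem cells undifferentiated. WT paused and KO paused cells grew in the same medium with 200 nM INK128, an inhibitor of the growth kinase mTOR, for 2 weeks. Mettl3 is the catalytic subunit of the complex that methylates adenosine in messenger RNA (m6A). The labels do not say which part of Mettl3 was disrupted, whether the KO cells are 1 clone, or whether replicates are separate cultures, so p-values measure the spread between these samples, which may be technical.

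Cells take up amino acids through membrane carriers of several families, and these 9 serve different substrates. Slc7a1 (CAT1) and Slc7a3 (CAT3) carry arginine and lysine. Slc3a2 (the CD98 heavy chain) brings a light chain to the membrane, either Slc7a5 (LAT1), which takes up leucine and other large neutral amino acids in exchange for glutamine, or Slc7a11 (xCT), which takes up cystine in exchange for glutamate. Slc38a1 (SNAT1) and Slc38a2 (SNAT2) import glutamine and small neutral amino acids with sodium, and Slc1a4 (ASCT1) and Slc1a5 (ASCT2) exchange alanine, serine, cysteine and, for Slc1a5, glutamine. Amino acids that enter the cell activate the mTOR complex mTORC1. When amino acids are short, the transcription factor ATF4 raises the transcription of several of these carriers through the C/EBP-ATF response element.

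RefSeq promoter windows on GRCm38.p6, from 250 bases before to 50 after the gene start, were found for 5 of the 9 genes: Slc7a1, Slc7a11, Slc3a2, Slc38a2 and Slc1a4. The C/EBP-ATF response element was searched on both strands as TGATGNAA, which 3.97% of 32851 promoter windows of this length hold. It occurred in the windows of Slc7a11 and Slc1a4 and in none of the windows of Slc7a1, Slc3a2 and Slc38a2. The stretches from 120 bases before to 10 after the start are shown for the 3 genes with the largest fitted falls on pausing in WT cells, 2 with the element and 1 without, all on the minus strand and written 5′ to 3′. Capitals mark the element on either strand.
Slc7a11, chr3:50443604-50443733: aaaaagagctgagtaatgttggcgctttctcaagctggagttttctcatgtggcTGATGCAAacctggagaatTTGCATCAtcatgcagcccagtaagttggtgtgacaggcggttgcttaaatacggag
Slc1a4, chr11:20332704-20332833: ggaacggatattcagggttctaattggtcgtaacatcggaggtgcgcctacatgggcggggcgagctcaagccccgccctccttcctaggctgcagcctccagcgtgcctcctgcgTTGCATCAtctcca
Slc7a1, chr5:148399895-148400024: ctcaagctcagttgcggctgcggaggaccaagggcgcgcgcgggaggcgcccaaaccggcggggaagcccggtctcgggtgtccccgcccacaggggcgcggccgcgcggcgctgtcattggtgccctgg
In Slc7a11 the matches lie at -66 to -59 on the sense strand and at -47 to -40 on the other strand, and in Slc1a4 the match spans the start, from -4 to 4. The antioxidant response element, searched as TGACNNNGC and held by 12.4% of windows, occurred in Slc7a1 and Slc38a2. The E-box CACGTG, held by 7.15% of windows, occurred in none of these windows. A match is a description of the letters and not of binding.

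Total counts ran from 10615548 to 39566713 per library. Mettl3 messenger RNA was lower in KO than in WT libraries and still counted there. In FBS its mean was 33.9 ± 3.17 CPM for WT against 27.2 ± 1.61 for KO, and with INK128 35.9 ± 2.85 against 30.1 ± 1.31 (SD, n = 3; CPM are counts scaled with TMM factors to a library of 1e6). Uty, Kdm5d, Eif2s3y and Ddx3y, all Y-linked, were counted 593 to 3124 times per KO library and at most 7 times per WT library, 6 libraries of each genotype. WT and KO cells therefore differed in more than Mettl3, and a difference between genotypes cannot be told apart from another difference between the cell lines. WT FBS replicate 1 stood apart: 2541 genes deviated by over 1 log2 unit from the average of replicates 2 and 3, against 72 to 644 for each of the other 11 libraries. For the transporters the median deviation of that library was -0.98 log2, and that of WT FBS replicate 3 was 0.85. Transporter calls that changed without either library are therefore given beside the results described, and for the gene lists some of the changed counts are. Without WT FBS replicate 1, the share of all genes called on the relative scale was 58.9% in WT pausing, 59.8% in KO pausing and 41.3% in the interaction, beside 38.2%, 42.7% and 17.9% with it, so a gain in calls without that library also occurred among all genes. All 8 pluripotency markers, Pou5f1 and Nanog among them, were counted in every group, with sums of 3860 to 4684 CPM in WT FBS, 4820 to 5238 in WT paused, 1928 to 2258 in KO FBS and 2498 to 2744 in KO paused cells. Tfcp2l1 had means of 1170, 1477, 183 and 357 CPM in these groups. In each condition 6 of the 8 were lower and 0 higher in KO than in WT cells. Of all genes 29.4% were lower and 28.4% higher in FBS, and 23.9% and 27.9% when paused. In KO pausing 4 rose and 2 fell, where 23.3% and 19.4% of all genes did. The 2 were Dppa5a, from 170 to 11.3 CPM, and Nanog, from 232 to 176.

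Each comparison was made on a relative scale, where a gene is measured against the other genes, and on a per-cell scale, where it is measured against ERCC spike-in RNA. RNA came from equal numbers of cells and the spike was added to the RNA, so losses before that step are not corrected. In bulk RNA, fewer cells with a message and less message per cell cannot be told apart. A gene was called at a Benjamini-Hochberg adjusted p under 0.05 over all tested genes in edgeR's quasi-likelihood test. On the per-cell scale that test drew the spread largely from all genes together. Its per-cell p-values are therefore far smaller than 3 libraries a group alone would give.

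On the relative scale, pausing of WT cells lowered 6 of the 9 transporters, raised none and left 3 uncalled, where 38.2% of all tested genes were called, 20.2% lower and 18.0% higher. Their median log2 fold change was -0.47, beside -0.02 for all tested genes. The count rests on the WT FBS libraries: 7 were called without WT FBS replicate 1 (Slc1a5 added), where 58.9% of all genes were. Without WT FBS replicate 3, 2 were called (Slc7a1 and Slc1a4), against 27.5% of all genes. A fit of the 6 WT libraries alone called 1 transporter (Slc7a1), and 2769 genes in all. Pausing of KO cells lowered 2 (Slc7a5 and Slc38a2) and raised 1 (Slc38a1), against a background of 42.7% called, 19.4% lower and 23.3% higher, with a median of -0.12 beside 0.03. A fit of the 6 KO libraries alone called 6, adding lower Slc7a11 and Slc1a4 and higher Slc1a5. The share of all genes called in that fit is not given here, so the gain cannot be read as one of the transporters. Between genotypes in FBS, 4 transporters were lower and 1 higher in KO cells, against 29.4% and 28.4% of all genes. Between paused cells 3 were lower and 2 higher, against 23.9% and 27.9%. Both genotype comparisons call 57.8% and 51.8% of the tested genes, so the share of transporters called there lies near the background. Comparisons that share a group share its samples.

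By the libraries themselves, 2 of the 9 (Slc7a1 and Slc1a4) had all WT paused values below all WT FBS values and 0 had all above, where 19.2% and 20.1% of all genes did. In KO pausing 4 did so downward (Slc7a5, Slc7a11, Slc38a2 and Slc1a4) and 1 upward (Slc38a1), against 30.7% and 35.0%. In FBS, 2 were lower (Slc7a1 and Slc38a1) and 1 higher (Slc38a2) in all KO than in all WT libraries, against 28.4% and 30.2%. When paused, 4 were lower (Slc7a1, Slc7a3, Slc7a5 and Slc38a1) and 2 higher (Slc38a2 and Slc1a4), against 33.0% and 36.2%. The pausing effects themselves differed between genotypes for 1 of the 9, where 17.9% of all genes were called, 9.61% with a higher effect in KO cells and 8.26% with a lower one.

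**Figure D1:**
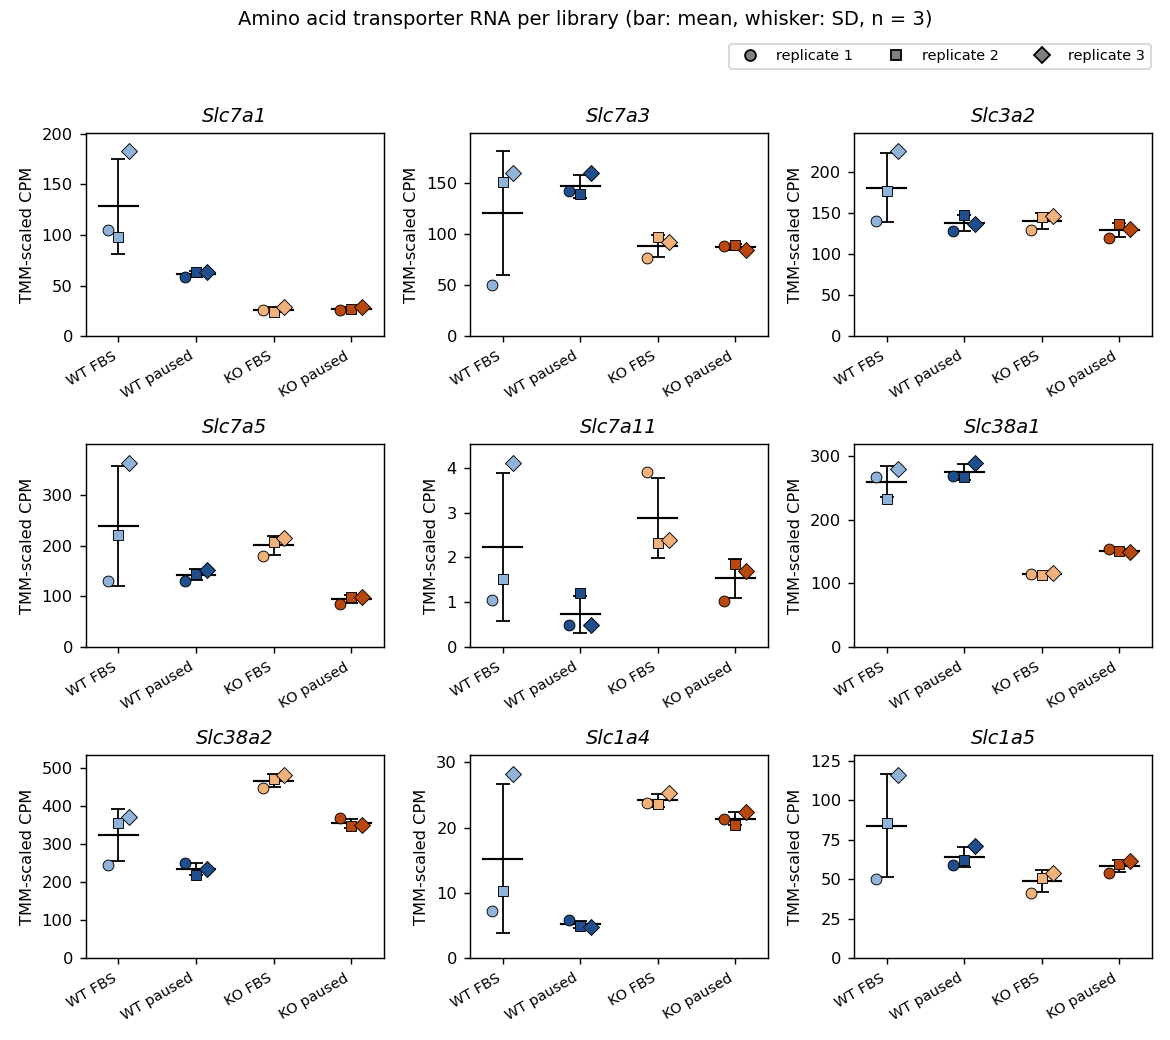
TMM-scaled CPM (vertical axis, from 0) of each transporter in the 12 libraries, by group; points are libraries with a shape per replicate, bars the mean and whiskers the SD (n = 3). Slc7a1 and Slc38a1 are lower in both KO groups than in both WT groups, Slc38a2 is lower in both paused groups by mean, and the 3 WT FBS libraries are more spread than those of other groups for most genes.

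**Figure D2:**
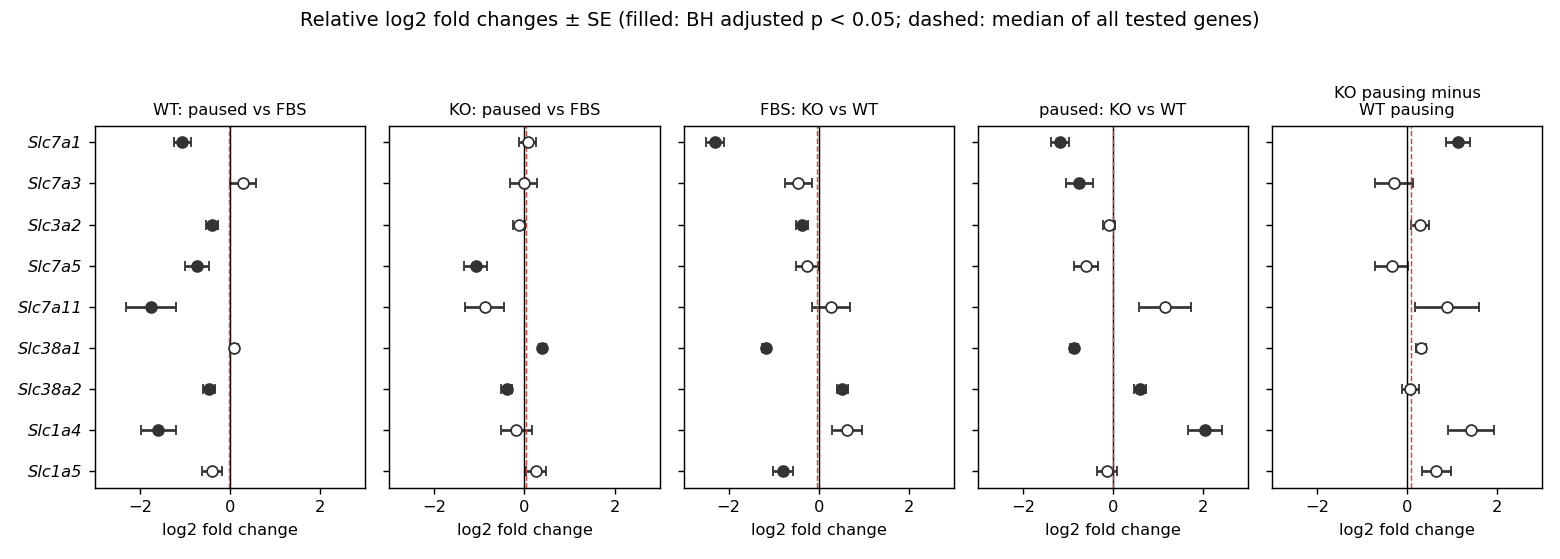
Relative log2 fold change ± SE (horizontal axis) of the 9 transporters in the 5 comparisons; filled points have an adjusted p under 0.05 in edgeR and the dashed line is the median of all tested genes. In WT pausing 6 points are filled, all to the left of 0, and in the difference between both pausing effects only Slc7a1 is.

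The cationic carrier Slc7a1 (chromosome 5, 148327410 to 148399904, minus strand, mm10) fell to 0.479 of its FBS level on pausing in WT cells and stood at 0.202 of the WT level in KO FBS cells. Its level was 105, 97.8 and 183 CPM in WT FBS replicates 1, 2 and 3 and 58.1, 63.7 and 63.0 in WT paused cells. In KO cells it was 25.8, 23.5 and 28.5 CPM in FBS and 25.9, 27.03 and 28.8 when paused. Every WT FBS library was above every WT paused library, every WT library was above every KO library, and both KO groups overlapped. The log2 fold change of WT pausing was -1.06 ± 0.19 (SE; edgeR adjusted p = 0.00127), and that of KO pausing was 0.07 ± 0.19 (edgeR adjusted p = 0.789). The pausing effects differed by 1.13 ± 0.27 (edgeR interaction, adjusted p = 0.0132), where 9.61% of all genes had a higher effect in KO cells. KO cells had less Slc7a1 than WT cells in FBS, by a log2 fold change of -2.31 ± 0.20 (edgeR adjusted p = 1.14e-06), and when paused, with -1.18 ± 0.19 (edgeR adjusted p = 0.000274). With any 1 of the 12 libraries left out, all 4 of these relative calls stayed past the threshold, and WT pausing ranged from -1.23 to -0.72. The 49 nearest tested genes had a median of -0.07 between genotypes in FBS.

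Slc7a3 (chromosome X, 101079210 to 101086020, minus strand), the other cationic carrier, was not called on pausing in either genotype. It was 50.7, 151 and 159.7 CPM in WT FBS, 142, 139 and 159.8 in WT paused, 76.4, 97.7 and 91.9 in KO FBS and 88.1, 89.8 and 84.5 in KO paused cells. WT FBS replicate 1 was below all 11 other libraries, and the log2 fold changes of pausing were 0.28 ± 0.29 in WT and -0.02 ± 0.29 in KO cells. Slc7a3 was lower in KO than in WT paused cells, with a log2 fold change of -0.75 ± 0.30 (edgeR adjusted p = 0.0498), but the call was lost in 9 of 12 fits with 1 library left out. In FBS the value was -0.45 ± 0.29 and not called, and without WT FBS replicate 1 it was -0.78 and called. The count ratio of Slc7a1 to Slc7a3 within a library, in which the scaling cancels, was 0.647 to 2.07 in WT FBS, 0.394 to 0.457 in WT paused, 0.241 to 0.338 in KO FBS and 0.294 to 0.341 in KO paused cells. The ratio groups did not overlap between WT FBS and WT paused or between WT FBS and KO FBS, and overlapped between both KO groups. For the 20 ratio tests an exact two-sided permutation test of 3 against 3 cannot give less than p = 0.1, which adjusts to 0.143.

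Slc3a2 (chromosome 19, 8706882 to 8723369, minus strand), the heavy chain shared by Slc7a5 and Slc7a11, lay between 119.9 and 225 CPM in all 12 libraries. It was 141, 177 and 225 CPM in WT FBS, 128, 148 and 137 in WT paused, 129, 145 and 146 in KO FBS and 119.9, 137 and 131 in KO paused cells. Its fall in WT pausing was -0.40 ± 0.14 on the log2 scale (edgeR adjusted p = 0.0394) with overlapping groups, and the call was lost in 10 of 12 fits with 1 library left out. Slc3a2 was lower in KO than WT cells in FBS (-0.37 ± 0.14, edgeR adjusted p = 0.0364), a call lost in 6 of those fits, at -0.18 without WT FBS replicate 3, and was not called in KO pausing (-0.12 ± 0.14) or between paused cells (-0.09 ± 0.14). The difference between its pausing effects, 0.28 ± 0.20, was called only without WT FBS replicate 1, at 0.42.

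The leucine carrier Slc7a5 (chromosome 8, 121881150 to 121907694, minus strand) fell to 0.471 of its FBS level on pausing in KO cells. It was 179, 206 and 215 CPM in KO FBS and 85.6, 98.9 and 98.6 in KO paused cells. The groups did not overlap, and the log2 fold change was -1.09 ± 0.26 (edgeR adjusted p = 0.00510), called with any 1 library left out. In WT cells it was 129.7, 221 and 363 CPM in FBS and 131, 144 and 153 when paused. WT FBS replicate 1 lay below all 3 WT paused libraries. The WT fall of -0.74 ± 0.26 (edgeR adjusted p = 0.0394) was called in only 1 of 12 fits with 1 library left out: it was -1.04 without WT FBS replicate 1 and -0.30, uncalled, without replicate 3. The pausing effects did not differ detectably (-0.34 ± 0.36, edgeR adjusted p = 0.555). Neither genotype comparison was called (-0.25 ± 0.26 in FBS and -0.60 ± 0.26 when paused, edgeR adjusted p = 0.0713). The FBS comparison was called at -0.52 without WT FBS replicate 1, and without replicate 3 it was 0.19 and uncalled. The paused comparison was called without either of these libraries. The median of the 793 tested genes of chromosome 8 was -0.46 between genotypes in FBS and -0.43 when paused, beside medians of all tested genes of -0.04 and 0.01, and its part in the Slc7a5 values was not tested.

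The ratio of Slc7a5 to Slc3a2 counts showed the change of the leucine carrier against its partner within each library. It was 1.39 to 1.47 in KO FBS and 0.714 to 0.752 in KO paused cells, a log2 difference of -0.97 ± 0.03. In WT FBS it was 0.921 to 1.61 and in WT paused 0.979 to 1.12, which overlapped, with a log2 difference of -0.24 ± 0.24. In KO cells the exact permutation p was the smallest possible, 0.1.

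The cystine carrier Slc7a11 (chromosome 3, 49892526 to 50443614, minus strand) was the least abundant of the 9, with 5 to 117 counts per library. It was 1.06, 1.51 and 4.11 CPM in WT FBS, 0.487, 1.21 and 0.497 in WT paused, 3.91, 2.33 and 2.39 in KO FBS and 1.03, 1.86 and 1.71 in KO paused cells. The highest WT FBS library was replicate 3, and the WT groups overlapped. The WT fall was -1.77 ± 0.55 on the log2 scale (edgeR adjusted p = 0.0245), and it was -0.97 and uncalled without WT FBS replicate 3, and uncalled also without WT paused replicate 1 or 3. KO groups did not overlap, but the KO difference of -0.88 ± 0.43 was not called (edgeR adjusted p = 0.119). Between genotypes Slc7a11 was not called in FBS (0.28 ± 0.42) or when paused (1.16 ± 0.57). The FBS comparison was called at 1.07 without WT FBS replicate 3, and then the paused comparison and KO pausing were called too. At these counts the precision is low.

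The glutamine carriers Slc38a1 (chromosome 15, 96571418 to 96642913) and Slc38a2 (chromosome 15, 96687392 to 96699730) are both on the minus strand with 44478 bases between them, and they moved in opposite directions between genotypes. Slc38a1 was 266, 232 and 278 CPM in WT FBS, 268, 267 and 289 in WT paused, 114, 113 and 117 in KO FBS and 153, 150.3 and 149 in KO paused cells. Slc38a2 was 246, 355 and 373 CPM in WT FBS, 252, 218 and 235 in WT paused, 447, 473 and 482 in KO FBS and 369, 347 and 350.4 in KO paused cells. Every KO library was below every WT library of the same condition for Slc38a1 and above every one for Slc38a2. In FBS the log2 fold change of KO against WT was -1.18 ± 0.08 for Slc38a1 (edgeR adjusted p = 2.50e-07) and 0.53 ± 0.13 for Slc38a2 (edgeR adjusted p = 0.00406). Between paused cells it was -0.87 ± 0.08 for Slc38a1 (edgeR adjusted p = 3.22e-06) and 0.60 ± 0.13 for Slc38a2 (edgeR adjusted p = 0.00212). These 4 calls held with any 1 library left out. The median of the 49 nearest tested genes was -0.03 between genotypes in FBS and 0.31 when paused.

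On pausing, Slc38a1 rose in KO cells, by 0.40 ± 0.08 on the log2 scale (edgeR adjusted p = 0.00196), and was not called in WT cells (0.09 ± 0.08). The difference between its pausing effects, 0.31 ± 0.12, was not called in the fit of all libraries and was called without WT FBS replicate 1 or 2. Slc38a2 fell in both genotypes, by a log2 fold change of -0.47 ± 0.13 in WT (edgeR adjusted p = 0.0146) and -0.40 ± 0.13 in KO cells (edgeR adjusted p = 0.0270). The WT call for Slc38a2 was lost when WT FBS replicate 2, WT FBS replicate 3 or WT paused replicate 2 was dropped, and the KO call was lost in 5 of 12 such fits. The within-library ratio of Slc38a1 to Slc38a2 was 0.653 to 1.08 in WT FBS, 1.07 to 1.23 in WT paused, 0.239 to 0.255 in KO FBS and 0.416 to 0.433 in KO paused cells. It was lower in every KO library than in every WT library. The log2 difference was -1.72 ± 0.22 between genotypes in FBS, -1.46 ± 0.07 when paused and 0.79 ± 0.03 on pausing of KO cells, each with the smallest exact permutation p, 0.1.

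**Figure D3:**
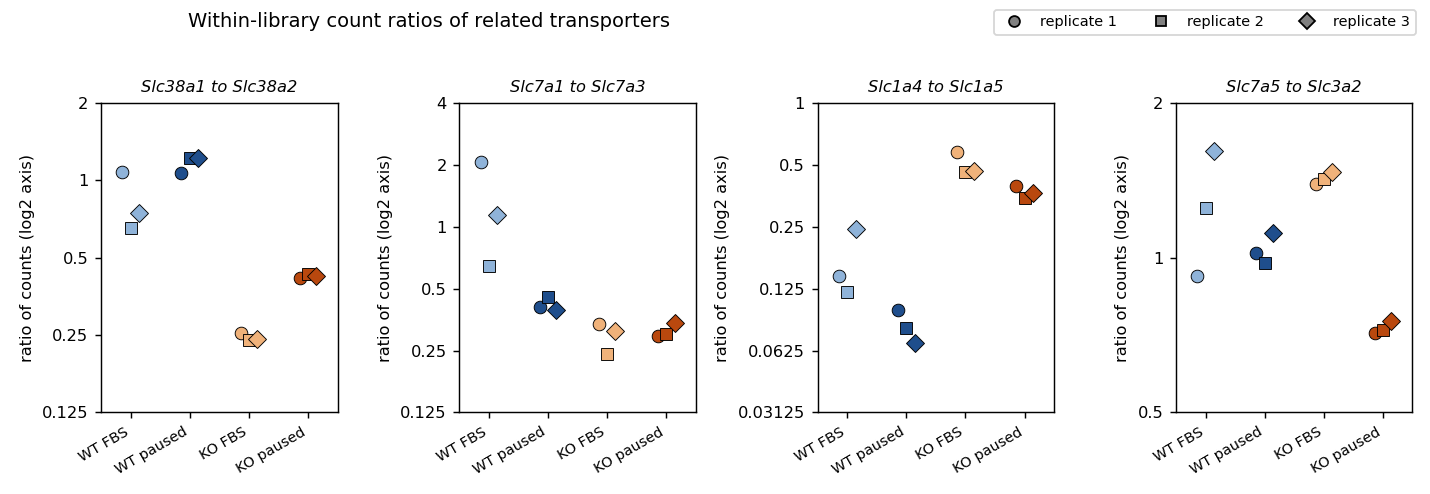
Ratio of counts within each library (vertical axis, log2 scale) for 4 pairs of transporters, 3 libraries a group with a shape per replicate. The Slc38a1 to Slc38a2 ratio is 0.239 to 0.433 in KO libraries and 0.653 to 1.23 in WT libraries, and the Slc7a5 to Slc3a2 ratio of KO cells drops from 1.39 to 1.47 in FBS to 0.714 to 0.752 when paused.

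Slc1a4 (chromosome 11, 20302180 to 20332713, minus strand), an exchanger of alanine, serine and cysteine, fell on pausing in WT cells and was 4.12 times higher in KO than in WT paused cells. It was 7.22, 10.3 and 28.3 CPM in WT FBS and 5.84, 5.03 and 4.83 in WT paused cells, and 23.7, 23.6 and 25.4 in KO FBS and 21.3, 20.4 and 22.5 in KO paused cells. The WT groups did not overlap, although WT FBS replicate 3 was well above replicates 1 and 2. The WT fall was -1.59 ± 0.39 on the log2 scale (edgeR adjusted p = 0.00700), and -0.80, still called, without WT FBS replicate 3. KO pausing was not called (-0.18 ± 0.34), while all KO FBS libraries were above all KO paused ones. KO against WT paused cells gave 2.04 ± 0.38 (edgeR adjusted p = 0.000735), called in every fit with 1 library left out, and 0.63 ± 0.34 in FBS, not called. The FBS comparison was called at 1.43 without WT FBS replicate 3, and at 1.65 on the per-cell scale, where it was also called without KO FBS replicate 1. The pausing effects differed by 1.41 ± 0.51, which missed the threshold (edgeR adjusted p = 0.0761). That difference passed without WT FBS replicate 1 (1.70) or replicate 2 (1.66) and was 0.62 and uncalled without replicate 3.

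Slc1a5 (chromosome 7, 16781340 to 16798274, plus strand), the glutamine exchanger of the same family, was 50.4, 85.8 and 116 CPM in WT FBS, 59.0, 62.5 and 71.1 in WT paused, 41.3, 51.1 and 54.3 in KO FBS and 54.0, 59.5 and 61.4 in KO paused cells. It was not called in WT pausing (-0.39 ± 0.22, edgeR adjusted p = 0.179), although without WT FBS replicate 1 it was called at -0.66, and not in KO pausing (0.25 ± 0.22). Slc1a5 was lower in KO than in WT cells in FBS, with a log2 fold change of -0.79 ± 0.22 (edgeR adjusted p = 0.00867), with overlapping groups. The difference between its pausing effects was 0.65 ± 0.31 and not called, and without WT FBS replicate 1 it was called at 0.88. The ratio of Slc1a4 to Slc1a5 counts was 0.121 to 0.244 in WT FBS, 0.0680 to 0.0990 in WT paused, 0.461 to 0.575 in KO FBS and 0.344 to 0.394 in KO paused cells. It was lower in every paused library than in every FBS library of the same genotype and higher in every KO than in every WT library.

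**Figure D4:**
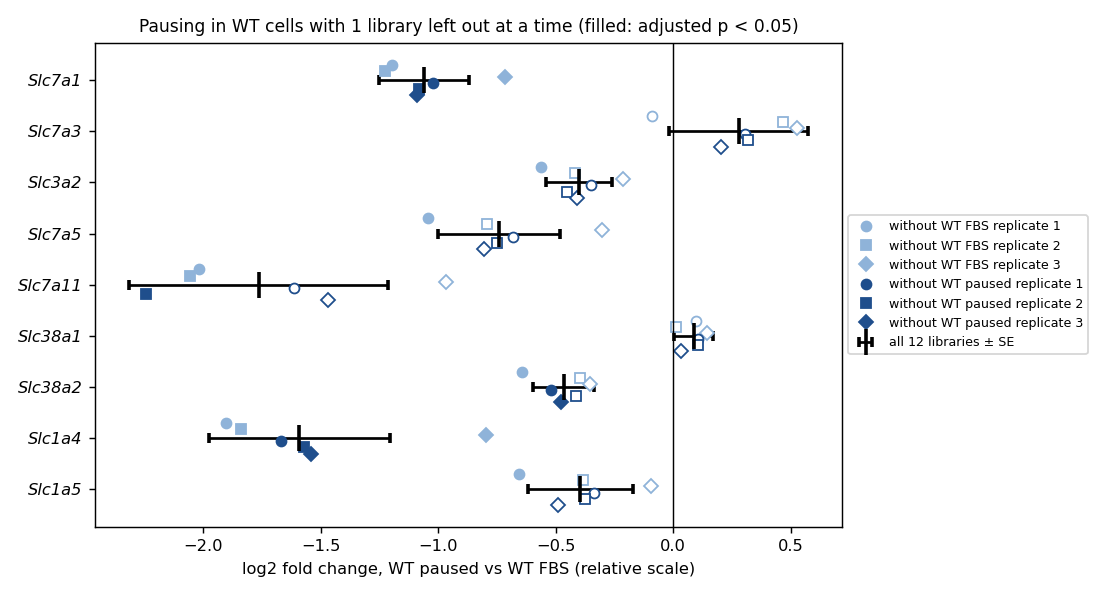
Relative log2 fold change of WT pausing (horizontal axis) for each transporter in the fit of all 12 libraries (black, ± SE) and with each of the 6 WT libraries left out (points; filled where the adjusted p is under 0.05). Slc7a1 and Slc1a4 stay filled throughout, and values without WT FBS replicate 1 and without replicate 3 lie farthest apart for most genes, at -1.04 and -0.30 for Slc7a5.

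Levels of different genes were set side by side per kilobase of exon, counting every annotated exon of a gene. That length was 3529 bases for Slc3a2 and 17236 for Slc38a1. It may exceed that of the transcripts these cells express, and the order of the genes depends on it. In WT FBS cells Slc7a5 and Slc3a2 were highest, at 64.2 ± 31.7 and 51.3 ± 11.97 CPM per kilobase (SD, n = 3). Slc38a2 (36.7 ± 7.77), Slc7a3 (31.8 ± 16.0), Slc1a5 (20.1 ± 7.86), Slc38a1 (15.02 ± 1.40) and Slc7a1 (11.1 ± 4.08) followed in CPM per kilobase. Slc7a5 and Slc3a2, and each pair of neighbours from Slc38a2 to Slc7a1, differed by less than the larger SD of the pair. Slc1a4 (3.89 ± 2.89) and Slc7a11 (0.160 ± 0.118) were lowest. In WT paused cells Slc3a2 (38.9 ± 2.78), Slc7a3 (38.9 ± 2.93) and Slc7a5 (38.5 ± 2.97 CPM per kilobase) were level. In KO paused cells Slc38a2 led at 40.2 ± 1.32 CPM per kilobase, with Slc3a2 at 36.6 ± 2.45 and Slc7a5 at 25.5 ± 2.06, and Slc1a4 (5.45 ± 0.260) stood above Slc7a1 (2.36 ± 0.126), the reverse of their order in WT FBS cells. Slc7a11 was the lowest of the 9 in all 4 groups.

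Per cell, all 9 transporters fell on pausing of WT cells, where 68.8% of all tested genes were called lower and 1.15% higher, and the median log2 fold change of all genes was -1.05. The transporters ranged from -2.78 (Slc7a11) to -0.76 (Slc7a3), with a median of -1.52. With 1 library left out, Slc7a3 lost its call in 4 of 12 fits and Slc38a1 in 1, and the other 7 kept theirs. Slc7a1 was 6.68, 5.95 and 13.6 counts per 1000 ERCC counts in WT FBS and 1.44, 2.54 and 2.08 in WT paused cells. Slc1a4 was 0.461, 0.629 and 2.10 counts per 1000 ERCC counts in WT FBS and 0.144, 0.200 and 0.160 in WT paused cells. Neither gene's groups overlapped, and the per-cell log2 fold changes were -2.11 ± 0.33 for Slc7a1 (edgeR adjusted p = 7.91e-09) and -2.68 ± 0.36 for Slc1a4 (edgeR adjusted p = 9.06e-12). The SEs of WT pausing per cell lay between 0.318 (Slc7a3) and 0.357 (Slc1a4), apart from 0.445 for Slc7a11. An error in the spike moves every gene of a library together, which these p-values do not show. In KO cells 6 of the 9 fell per cell, against 45.7% of all genes (2.45% were higher), and Slc7a1, Slc38a1 and Slc1a5 were not called. With 1 library left out, Slc7a3 lost its call in 6 of 12 fits, Slc3a2 in 4 and Slc1a4 in 3. Slc7a5, Slc7a11 and Slc38a2 kept theirs. The KO groups of Slc7a3 and Slc3a2 overlapped per cell. Slc7a1 and Slc1a5 were called without KO FBS replicate 1. Slc7a5 fell most there, with a log2 fold change of -1.85 ± 0.33 (edgeR adjusted p = 4.31e-07), beside an all-gene median of -0.72.

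Between genotypes per cell, Slc7a1 (-2.26 ± 0.33) and Slc38a1 (-1.08 ± 0.32) were lower in KO FBS cells, where 9.81% of all genes were lower and 19.1% higher. Slc7a11 was called higher there without WT FBS replicate 3, at 1.22, and Slc1a5 was called lower without WT FBS replicate 1 or KO FBS replicate 2. In paused cells Slc7a11 (1.51 ± 0.45), Slc38a2 (0.99 ± 0.33) and Slc1a4 (2.43 ± 0.35) were higher in KO, against 27.1% of genes, and Slc7a1 (-0.80 ± 0.32) was lower, against 5.62%. The paused calls were lost in 7 of 12 fits with 1 library left out for Slc7a1, in 3 for Slc7a11 and in 3 for Slc38a2, and in none for Slc1a4. The higher effect of pausing in KO cells was called per cell for Slc7a1 (1.45 ± 0.45, edgeR adjusted p = 0.0326) and Slc1a4 (1.75 ± 0.47, edgeR adjusted p = 0.0100), where 3.04% of genes had a higher effect and 1.66% a lower one. Without WT FBS replicate 3 the per-cell difference for Slc1a4 was 0.78 and uncalled, and the call for Slc7a1 was lost in 8 of 12 fits with 1 library left out. The ratio of all gene counts to the TMM-scaled ERCC total was 67.7 to 79.1 in WT FBS and 27.9 to 38.3 in WT paused cells. It was 50.3 to 90.4 in KO FBS and 37.3 to 41.0 in KO paused cells. Without the TMM factor these ratios were 72.4 to 74.6, 29.0 to 37.4, 47.4 to 93.5 and 36.5 to 40.3.

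The amino acid response, the ATF4 pathway that acts on several of these carriers, was followed through 20 listed genes. In WT pausing 13 were lower, 1 was higher and 6 were not called, where 20.2% of all genes were lower and 18.0% higher. Their median log2 fold change was -0.82, beside -0.02 for all tested genes. Atf4 itself was 195, 177 and 265 CPM in WT FBS and 104, 120.5 and 118 in WT paused cells, and fell by 0.90 ± 0.15 (edgeR adjusted p = 0.000732). Asns, asparagine synthetase, fell by 0.69 ± 0.10 on the log2 scale (edgeR adjusted p = 0.000348). Trib3, a pseudokinase induced by ATF4, was 6.45, 15.5 and 34.7 CPM in WT FBS and 3.31, 1.49 and 2.39 in WT paused cells, highest in WT FBS replicate 3 as Slc1a4 and Slc7a11 were. The 1 gene that rose was Eif2ak4 (GCN2, the kinase that senses uncharged transfer RNA), by 0.27 ± 0.09 (edgeR adjusted p = 0.0274). Without WT FBS replicate 1, 14 were lower and 3 higher, against 31.1% and 27.8% of all genes in that fit. Without replicate 3, 11 were lower and 0 higher, against 14.4% and 13.0%.

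In KO pausing 7 of the 20 response genes were lower, 3 higher and 10 not called, against 19.4% lower and 23.3% higher among all genes, with a median log2 fold change of -0.27 beside 0.03. The 3 that rose were Cebpg (0.93 ± 0.10), Atf5 (0.55 ± 0.14) and Eif2ak4 (0.26 ± 0.09). Atf4 was 81.6, 89.4 and 107 CPM in KO FBS and 82.4, 87.0 and 96.2 in KO paused cells, and was not called (-0.07 ± 0.15). Its pausing effect was higher in KO than in WT cells, by 0.83 ± 0.21 (edgeR interaction, adjusted p = 0.0166). In all, 6 of the 20 had a higher effect in KO cells and 0 a lower one, against 9.61% and 8.26% of all genes, Cebpg (1.00 ± 0.15), which encodes a dimer partner of ATF4, and Atf5 (1.18 ± 0.19), a related factor, among them. These counts were 11 and 1 without WT FBS replicate 1, where 24.3% and 17.1% of all genes were called, and 5 and 0 without replicate 3, where 7.88% and 6.61% were. In FBS 12 of the 20 were lower in KO than in WT cells and 0 higher, against 29.4% and 28.4% of all genes, Atf4 at a log2 fold change of -1.20 ± 0.15 (edgeR adjusted p = 2.31e-05).

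**Figure D5:**
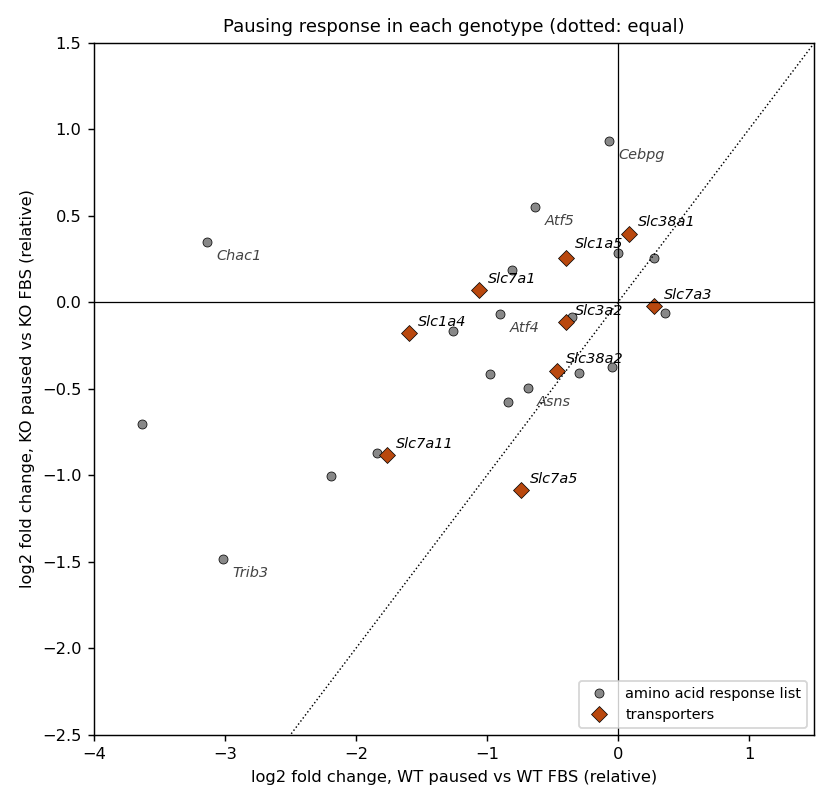
Relative log2 fold change on pausing in KO cells (vertical axis) against that in WT cells (horizontal axis) for the 9 transporters (diamonds) and the amino acid response list (circles), with equality dotted. Slc7a1 (-1.06 in WT, 0.07 in KO) and Atf4 (-0.90, -0.07) lie near 0 in KO cells, while Slc7a5 (-0.74, -1.09) lies below the line; Nupr1, with 1 count over the WT paused libraries, is not drawn.

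Of 21 other amino acid carriers of the cell surface, 3 rose, 3 fell and 15 were not called in WT pausing, and 8 rose, 4 fell and 9 were not called in KO pausing. Among all genes 18.0% rose and 20.2% fell in WT pausing, and 23.3% and 19.4% in KO pausing. Of the 21, 1 rose in WT pausing without WT FBS replicate 3, where 13.0% of all genes did. Without WT FBS replicate 1, 8 rose and 6 fell in KO pausing, against 29.9% of all genes in each direction. Slc38a4 (SNAT4), a paralog of the glutamine carriers, fell in both, from 207 ± 5.64 to 57.8 ± 4.34 CPM in WT (-1.84 ± 0.09, edgeR adjusted p = 5.00e-07) and from 93.4 ± 8.13 to 50.3 ± 3.10 in KO cells (-0.89 ± 0.09, edgeR adjusted p = 1.03e-05). Slc6a15, a carrier of neutral amino acids, rose in both, by 1.70 ± 0.17 in WT (edgeR adjusted p = 2.49e-05) and 1.57 ± 0.17 in KO cells (edgeR adjusted p = 1.54e-05). Slc7a8 (LAT2), another light chain of Slc3a2, fell in KO cells from 4.43 ± 1.103 to 1.45 ± 0.207 CPM and was at 0.86 ± 0.173 and 1.04 ± 0.024 CPM in WT cells. Its pausing effect was lower in KO than in WT cells, by a log2 difference of -1.93 ± 0.37 (edgeR interaction, adjusted p = 0.00393).

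For the next lists, the shares of all genes in the fit of all samples were 20.2% lower and 18.0% higher in WT pausing. In KO pausing the shares were 19.4% lower and 23.3% higher. Among 8 tested lysosomal carriers, 1 fell in WT pausing (Slc29a3, -0.75 ± 0.11), and 3 rose and 1 fell in KO pausing. Ctns, the cystine exporter of the lysosome, was at 1.58 ± 0.40 in KO pausing (edgeR adjusted p = 0.00700). Without WT FBS replicate 1, 6 of the 8 rose in WT pausing, where 27.8% of all genes did. Of 15 genes of cystine and glutathione metabolism, 6 fell and 0 rose in WT pausing, and 5 fell and 2 rose in KO pausing. Without WT FBS replicate 1, 11 fell and 1 rose in WT pausing, against 31.1% and 27.8% of all genes, and 8 fell and 4 rose in KO pausing, against 29.9% in each direction. Gclm, a subunit of the enzyme that starts glutathione synthesis, fell by 0.73 ± 0.11 in WT cells (edgeR adjusted p = 0.000412). Of 13 genes of glutamine use, 6 fell and 2 rose in WT pausing, and 4 fell and 1 rose in KO pausing. Without WT FBS replicate 1, 9 fell and 2 rose in WT pausing, against 31.1% and 27.8% of all genes. Without WT FBS replicate 3, 4 fell and 0 rose in WT pausing, against 14.4% and 13.0% of all genes. Glul, glutamine synthetase, rose by 0.38 ± 0.11 on the log2 scale in WT cells (edgeR adjusted p = 0.0179).

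Trophoblast markers differed with genotype and pausing: the 9 summed to 47.3 to 74.1 CPM in WT FBS, 32.2 to 48.3 in WT paused, 195 to 251 in KO FBS and 56.3 to 64.1 in KO paused cells. Elf5 was under 1 CPM in all 4 groups, and Cdx2 was under 1 CPM in both paused groups. Of the 8 tested trophoblast markers 6 were higher and 0 lower in KO than in WT FBS cells, against 28.4% and 29.4% of all genes. Their median log2 fold change there was 3.40. All 8 fell in KO pausing, against 19.4% of all genes, with a median of -2.68. In WT pausing 4 fell and 1 rose, against 20.2% and 18.0%. The 10 markers of extraembryonic endoderm summed to 192 to 234 CPM in WT FBS, 158 to 170.4 in WT paused, 298 to 312 in KO FBS and 336 to 339.8 in KO paused cells, with Afp under 1 CPM in all. Lamb1 and Col4a1, basement membrane genes that other cells express too, made up most of that sum in FBS cells, with means of 101 and 66.2 CPM in WT and 162 and 117 in KO cells. The endoderm regulators Gata6, Gata4 and Sox7 were lower in KO FBS than in WT FBS cells. Gata6 was at 0.676 against 5.47 CPM, Gata4 at 0.547 against 4.75 and Sox7 at 2.05 against 5.64. Foxa2, another endoderm regulator, was under 1 CPM in every WT FBS library but not in every KO FBS library. Of the 9 tested endoderm markers 8 fell and 1 rose in WT pausing, against 20.2% and 18.0% of all genes, with a median log2 fold change of -2.12. In FBS 3 were higher and 4 lower in KO than in WT cells, against 28.4% and 29.4% of all genes. The 8 fibroblast markers summed to 1488 to 3110 CPM in WT FBS, 2617 to 2782 in WT paused, 952 to 1059 in KO FBS and 1453 to 1522 in KO paused cells, with Postn under 1 CPM in all. Fn1, the fibronectin gene, made up most of that sum, with means of 1944, 2663, 921 and 1354 CPM in these groups. Of the 7 tested fibroblast markers 6 fell and 0 rose in WT pausing, against 20.2% and 18.0% of all genes, with a median of -2.69. In FBS 4 were higher and 2 lower in KO than in WT cells, against 28.4% and 29.4% of all genes. The 8 neural markers summed to 68.1 to 138 CPM in WT FBS, 178 to 231 in WT paused, 123 to 151 in KO FBS and 208 to 236 in KO paused cells. The part of these marker changes in the transporter results was not tested.

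Across the 12 samples the 6 genes whose log2 CPM followed the mean standardised profile of the 9 transporters most closely, of 9943 compared, were Vasp (Pearson r = 0.949), Sf3a1 (0.944), Qprt (0.932), Hax1 (0.930), Ndufb10 (0.930) and Xpot (0.928). The transporters themselves followed that profile unevenly: Slc3a2 (0.967), Slc7a5 (0.863) and Slc1a5 (0.824) most closely, and Slc1a4 (0.299), Slc38a2 (0.267) and Slc38a1 (0.254) least. These values describe samples that share groups and carry no test. Within groups, the deviations of Slc7a5 from its group mean went with those of Slc1a5 (r = 0.976) and Slc3a2 (r = 0.962), over 12 libraries among which WT FBS replicates 1 and 3 are the farthest from their group. Over all 12 samples Slc38a1 and Slc38a2 had r = -0.840, and Slc38a2 and Slc1a4 had r = 0.910.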

How the data were processed

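The authors deposited a table of raw counts for 24421 gene symbols and 92 spike-in RNAs, and a second table of log2 values normalized to cell number that holds all 9 transporters among 14495 genes. Tools listed without roles in the submitters' processing notes are featureCounts, Subread 1.5.0, Trim Galore 0.4.0 and edgeR 3.32.1, with build mm10; the sources used here do not give the aligner, the annotation or whether strand was used. The test was edgeR 4.0.16 under R 4.3.3 (robust quasi-likelihood, 4 group means, all 12 samples, minimum count 10 and minimum total 15), with p-values adjusted by Benjamini and Hochberg over 15281 genes. Library size was the gene total times a TMM factor over genes (relative scale) or the ERCC total times a TMM factor over ERCC rows (per cell); an error in the spike moves every gene of that library together. Positions are from GENCODE vM21 on GRCm38, where 378 gene rows had no match. No exon of a transporter overlapped an exon of another gene, while the spans of Slc7a5 and Slc7a11 did overlap other genes. The transporters and gene lists were chosen with earlier results of these data known. Named genes are all transporters, Mettl3, up to 4 genes of a list with the lowest p plus called genes that moved against the list, and the 6 genes most like the mean profile with at least 5 CPM; not every gene allowed by this rule is printed. Ratios were tested with exact permutation tests. Alternatives were DESeq2 1.42.0, limma 3.58.1 on the deposited log2 values, other scalings, no filter, a replicate block, 2 groups per fit and leaving out each library; for the gene lists, leaving out WT FBS replicate 1 or 3 was chosen after seeing the data. The scripts were tested on data simulated at a dispersion of 0.05, for the relative WT pausing comparison only. Of genes changed to 4, 2, 0.5 and 0.25 times their level, 100%, 52%, 54% and 98% were recovered, and 2.56% of calls were false. The simulated data held no library that stood apart as WT FBS replicate 1 did, so these rates do not cover the spread of the WT FBS libraries.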

Additional observations from a re-analysis of the deposited data

Results flagged for a closer look

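The pausing effect on Slc7a1 differed between genotypes by the edgeR interaction test, by 1.13 ± 0.27 on the relative log2 scale (adjusted p = 0.0132) and by 1.45 ± 0.45 per cell (adjusted p = 0.0326). Leaving out 1 library at a time, the relative value ranged from 0.79 to 1.30 and was always called, and the per-cell value ranged from 0.98 to 1.64 and lost its call in 8 of 12 fits. The pausing effect on Slc1a4 differed by 1.75 ± 0.47 per cell (edgeR adjusted p = 0.0100), with a range of 0.78 to 2.10 and the call lost without WT FBS replicate 3, WT paused replicate 3 or KO paused replicate 3.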

How the results depend on the processing

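Counts here are transporters called unless all genes are named. Where no count of all genes is printed beside it, a changed count cannot be read as a result about the transporters. Fits of only the 2 groups compared gave 1 in relative WT pausing (6 in the fit of all samples; all genes 2769 against 5832), 6 in relative KO pausing (against 3), 3 in the relative FBS genotype comparison (against 5) and 1 in the same comparison per cell (against 2; all genes 2916 against 4416). A replicate block gave 5 in the per-cell FBS genotype comparison, 1970 genes in all in the per-cell interaction (against 718), and turned the uncalled Slc7a3 value of relative KO pausing from -0.02 to 0.000267. Replicate numbers were not taken to pair samples, because the labels state no pairing. Same-numbered samples were nevertheless alike to a degree. Their deviations correlated at -0.02 to 0.27, and at 0.13 to 0.27 for replicate 1. Of 18 pairs 10 were over 0.1, and 10 of 12 libraries correlated best with their own number. The p-values of the main fit take no account of this likeness. ERCC totals without TMM gave 1 in the per-cell interaction (against 2), DESeq2's Wald test gave 2 in the relative interaction (against 1), and limma on the deposited log2 values gave 3 in per-cell KO pausing (against 6; all genes 4841 against 7360). The 2-group fits use fewer samples, yet relative KO pausing gained calls (6 against 3) while the other comparisons named lost them. The fit of all samples estimates the spread of a gene from all 12 libraries. The SD of Slc1a4 was 11.3 CPM for WT FBS, 1.00 for KO FBS and 1.02 for KO paused libraries. Its relative KO pausing value had an SE of 0.34 in the fit of all samples. Whether the WT FBS spread raised the SE of KO pausing was not tested. The cause of the change was not tested for any setting.

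With 1 library left out, counts ranged from 2 to 7 in relative WT pausing, 1 to 5 in the relative interaction, 0 to 3 in the per-cell interaction, 3 to 8 in per-cell KO pausing, and 2 to 4 and 1 to 4 in the per-cell genotype comparisons in FBS and paused cells. For all genes they ranged from 4171 to 9219 (relative WT pausing, highest without WT FBS replicate 1), 1819 to 6463 (relative interaction), 397 to 1718 (per-cell interaction) and 4112 to 10459 (per-cell KO pausing). Uncalled values that changed sign were, on the relative scale, Slc7a3 in WT pausing (-0.089 to 0.53), KO pausing (-0.12 to 0.055) and the interaction (-0.55 to 0.042), Slc38a2 in the interaction (-0.040 to 0.22), and Slc7a5 (-0.52 to 0.19) and Slc7a11 (-0.013 to 1.07) between genotypes in FBS. Per cell they were Slc7a3 (-0.43 to 0.33) and Slc7a5 (-0.64 to 0.26) in the interaction, and Slc3a2 (-0.58 to 0.034), Slc7a3 (-0.70 to 0.060), Slc7a5 (-0.48 to 0.41) and Slc7a11 (-0.027 to 1.22) between genotypes in FBS. The log2 ratio of Slc7a1 to Slc7a3 in KO pausing ranged from -0.056 to 0.19. Depth limits Slc7a11 most, with 5 counts in its lowest library.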
